A study of Clarias macrocephalus with 14 samples.

Results

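The last sampled week of the series, 24 against 17 days post fertilization (dpf), was compared in the broadhead catfish Clarias macrocephalus, using RNA of whole fry. The 2 libraries of 24 dpf and the 2 of 17 dpf, of 14 libraries in all, were taken by their column names, and estimated read counts were summed over all transcripts that carried the same all-digit Gene ID. Every group was whole-body material of unknown sex, for which the labels name no treatment, and the ages were 3, 5, 13, 14, 16, 17 and 24 dpf with 2 libraries each. The labels give no strain, and do not say whether a library came from a single fry or a pool, or whether the 2 libraries of an age came from separate spawns or tanks. All p-values therefore concern only these libraries. Those of edgeR rest on the spread between libraries of the same age over all 14, which may be technical.

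Clarias catfishes breathe water with their gills and air with branched organs in a chamber above the gills, and the young start out as water breathers. During larval and juvenile growth the yolk is used up, the gut, skeleton and muscle are built, and the air-breathing organ forms. The study followed expression over early development in a search for genes linked to air breathing. The deposited table pairs its Gene IDs with no gene names, so the week is described by levels, classes of Gene IDs and the courses of 4 Gene IDs, and no gene function or tissue is named. RNA from whole fry mixes all tissues, and fewer cells of a type cannot be told apart from less RNA per cell.

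The 24 dpf libraries held 1913945 and 1460853 counts, against 3395340 and 2933985 counts in the 17 dpf libraries. A few Gene IDs took much of every one of these 4 libraries, so the counts were scaled by TMM, a factor per library under which most Gene IDs are taken not to differ. The factors were 0.391 and 0.505 in the 24 dpf libraries and 0.553 and 0.657 in the 17 dpf libraries, and between 1.21 and 1.41 in the younger ones. Levels are given below as CPM, counts per 1e+06 of the scaled library total. After scaling, the total behind these levels was 736978 and 725607 at 24 dpf, against 1863801 and 1911441 at 17 dpf. The replicates also differed most at these ages. The median absolute difference in log2 CPM between the 2 libraries of an age over 18644 Gene IDs was 0.5 at 24 dpf and 0.38 at 17 dpf, and lay between 0.12 and 0.25 at each younger age. Among Gene IDs above 32 CPM it was 0.28 at 24 dpf and 0.28 at 17 dpf, against 0.06 to 0.15 at the others. The scaled totals were also smallest at 24 and 17 dpf, against 2902566 to 11611836 at the younger ages. The part of depth in these differences was not tested.

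Many Gene IDs differed in level after the 7 days, and among these the abundant ones were mostly higher and the scarce ones mostly lower at 24 dpf. Of 18644 Gene IDs tested, 4733 (25.4%) had an adjusted p under 0.05 (edgeR, quasi-likelihood F test, Benjamini-Hochberg adjustment over all of them). There were 2525 (13.5%) higher and 2208 (11.8%) lower at 24 dpf. Those that were higher had a median level of 67.8 and 68.9 CPM in the 24 dpf libraries, against 35.9 and 30.9 CPM in the 17 dpf libraries. Those that were lower had a median of 4.07 and 4.13 CPM at 24 dpf, against 15.6 and 16.2 CPM at 17 dpf. The libraries of the 2 ages did not overlap for 2506 of the 2525 and for all 2208, where 26.5% of all tested Gene IDs had both 24 dpf libraries above both of 17 dpf and 32.8% had both below. All 14 libraries shared an estimate of spread for each Gene ID, and the replicates of the younger ages were closer to each other than those of 24 and 17 dpf. The edgeR p-values and standard errors (SE) given here may therefore be too small for 24 against 17 dpf. When the 4 libraries were fitted alone, 2937 of 11971 Gene IDs (24.5%) passed, and 2843 of these were among the 4733, each in the same direction. The count was 2851 without replicate 1 and 3011 without replicate 2 of 24 dpf.

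Which direction prevailed depended on the scaling and on the fit. TMM gave 53.3% of the changed Gene IDs as higher, upper-quartile scaling gave 40.8%, and library totals with no further scaling gave 20.5%. Against TMM, upper-quartile scaling moved the log2 change of a Gene ID by -0.16 in the median, and unscaled totals moved it by -0.441. The 4 libraries fitted alone were filtered and TMM-scaled anew. There 46% were higher, and the log2 change of a Gene ID moved by -0.167 in the median against the main fit. With the TMM scaling of the main fit, 48.2% were higher among Gene IDs that passed a test against a log2 change of 1.

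The change over the week went with the level of the Gene ID. Among the 257 Gene IDs at 256 CPM or more, from mean log2 CPM over all 14 libraries, 205 (79.8%) were higher and 18 (7%) lower at 24 dpf. From 64 to 256 CPM, 614 of 1238 (49.6%) were higher and 110 (8.89%) lower. From 16 to 64 CPM, 1312 of 5876 (22.3%) were higher and 607 (10.3%) lower. Below that the order turned, with 358 of 7724 (4.63%) higher and 967 (12.5%) lower from 4 to 16 CPM, and 36 of 3549 (1.01%) higher and 506 (14.3%) lower under 4 CPM. The share lower depended on the libraries, and without replicate 2 of 17 dpf it rose with level up to 256 CPM. In the class under 4 CPM it was 3.13% without replicate 1 and 3.55% without replicate 2 of 24 dpf, and 7.95% without replicate 2 of 17 dpf, and without either library of 24 dpf it no longer went down with level. Precision rises with the level, so the shares of calls alone do not compare sizes of change. The median log2 change over all Gene IDs of a class, called or not, was 1.01 in the highest class, then 0.5, 0.22 and -0.28, and -1.43 in the lowest class, or -0.63 there with Gene IDs at 0 counts set to the change that 3 counts over an age would give.

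The order of the class medians was kept under each scaling tried and without each library, although the level at which they crossed 0 moved. With no scaling beyond library totals the class medians were 0.57, 0.06, -0.23, -0.72 and -1.85 in the same order, and 65.8% of the highest class were still higher and 15.6% lower. With upper-quartile scaling they were 0.85, 0.34, 0.06, -0.44 and -1.59. When classes were set by the libraries of 3 to 16 dpf, which did not enter the contrast, the medians were 1.05, 0.48, 0.18, -0.29 and -1.28. Depth differed along with level: a Gene ID of the lowest class had a median of 1 count over both 24 dpf libraries and 12 counts over both 17 dpf libraries, and one of the highest class had 1336 and 2013. The part of depth in this order was not tested.

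**Figure D1:**
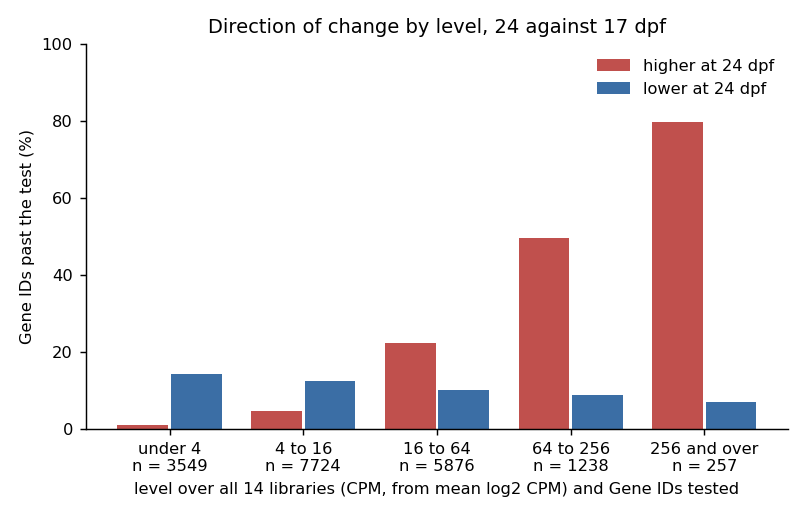
Percent of the tested Gene IDs of each level class that were higher (red) or lower (blue) at 24 than at 17 dpf by edgeR (adjusted p under 0.05), with classes by mean log2 CPM over all 14 libraries and the number tested under each. The share higher goes up with the level, to 79.8% at 256 CPM and over. The share lower goes down to 7%, an order not kept without either library of 24 dpf or without replicate 2 of 17 dpf.

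Among the Gene IDs called, fitted rises were mostly modest and fitted falls ranged more widely, but the 2 groups differed in precision. The median SE was 0.22 in the higher and 0.56 in the lower group, so smaller rises than falls could pass. From the highest to the lowest level class, the median log2 changes of those called were 1.11, 0.93, 1.01, 1.48 and 2.58 for rises. For falls they were -1.12, -0.91, -1.29, -2.1 and -1.69, both with 0 counts set to 3 counts over an age. Among the 2525 Gene IDs that were higher, the middle 50% had log2 changes of 0.8 to 1.46, with a median of 1.08, and 227 were at least 4-fold higher in the fit. Among the 2208 that were lower, the median was -2.12, and 1194 were at least 4-fold lower. A large share of the strongest falls came from Gene IDs with no count left, whose fitted change has no measured lower level. Of the 2208, 420 (19%) had 0 counts in both 24 dpf libraries, while 7 of the 2525 had 0 counts in both 17 dpf libraries. With these set to a floor of 3 counts over the age, the median of the lower group was -1.7, and 838 were at least 4-fold and 43 at least 16-fold lower, where the fit had 463 at least 16-fold lower. On the same scale 12 were at least 16-fold higher.

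Most of the 420 Gene IDs that went unseen were scarce at 17 dpf. At their 17 dpf level, the 24 dpf libraries would have held a median of 7.73 counts of each, from 4.25 to 39.3, and at least 10 counts for 125 of them. The fall was at least 2.58-fold in the median and at least 13.1-fold for the Gene ID with the strongest bound, against the floor over the 24 dpf group (2.05 CPM). At the 5 younger ages, 360 of the 420 had at least 3 counts at every age. These were seen from 3 to 17 dpf and not counted at 24 dpf at this depth. The same held at the younger ages for 797 of all 1222 tested Gene IDs with 0 counts in both 24 dpf libraries. The low-count filter used all 14 libraries, so being seen at the younger ages was partly fixed by the filter. Of the 420, 47 passed the low-count filter with the 4 libraries alone, and 251 of the tested Gene IDs at 0 counts at 24 dpf were called lower without replicate 2 of 17 dpf. The 7 that appeared had bounds of at least 6.91-fold in the median and at least 69.4-fold at most. Floors and counting intervals cover counting error only.

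Fewer Gene IDs were seen at 24 dpf at an equal library total as well. Only unscaled totals were made equal. The TMM factors were 0.391 and 0.505 at 24 dpf, against 0.553 and 0.657 at 17 dpf. An equal total thus still held fewer scaled counts at 24 dpf, and the part of this in the difference was not tested. Drawn without replacement to 1438248 counts, the total of the smallest library, the 24 dpf libraries would show 16573 and 17011 Gene IDs, against 19379 and 20322 in the 17 dpf libraries (16792 ± 310 and 19851 ± 667, SD, n = 2 each). The 2 ages did not overlap. With 2 libraries against 2, an exact two-sided permutation test cannot give a p below 0.33, the value it gave here. A Poisson expectation at 1438364 counts, which treats the observed counts as the true levels and so gives fewer Gene IDs than were seen even at a library's own depth, was 15660 and 15965 at 24 dpf, against 18937 and 19888 at 17 dpf. The difference of the means, 24 minus 17 dpf, was -3059 Gene IDs without replacement and -3600 by the Poisson expectation, which was -3659 with the 23 most abundant left out before fixing the depth. By that expectation, counting as seen only Gene IDs with at least 5 counts left 10070 and 11150 at 24 dpf, against 12939 and 14416 at 17 dpf.

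The most abundant Gene IDs were nearly the same at both ages and mostly rose. The 20 with the most counts held 60.5% and 54.9% of the counts at 24 dpf, against 60.6% and 59.8% at 17 dpf (57.7% ± 3.97 and 60.2% ± 0.546, SD, n = 2 each), and 17 of the 20 were on both lists. Of the 23 on either list, 17 were higher and 1 was lower at 24 dpf, and 5 did not pass the test (median log2 change 0.97, against -0.09 over all tested). The median log2 change of the 257 Gene IDs in the highest level class was 1.01, so the lists moved with their level class. The count depended on the libraries: 8 were higher and 4 lower without replicate 1 of 24 dpf, 10 were higher and 1 lower without replicate 2 of 17 dpf, and 3 were higher and 1 lower with the 4 libraries alone. With no scaling beyond library totals 12 were higher and 5 lower. Of the 20 leading Gene IDs of 24 dpf, replicate 1 was above replicate 2 in CPM for 19 at 24 dpf and for 20 at 17 dpf.

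The leading Gene ID took a smaller share of the counts at 24 dpf, without a change in scaled level that passed the test. It held 18.4% and 21.1% of the counts at 24 dpf, against 30.6% and 32.7% at 17 dpf (19.7% ± 1.88 and 31.7% ± 1.53, SD, n = 2 each; exact two-sided permutation p = 0.33, the smallest this design allows). At the younger ages it held 0.146 to 6.35%. Both 24 dpf libraries were thus below both of 17 dpf and above all 10 younger ones. The Wilson 95% interval of each share was at most 0.066 percentage points to either side. In TMM-scaled levels its log2 change was -0.23 ± 0.29 (SE, edgeR adjusted p = 0.6), and with no scaling beyond library totals it was -0.67 (adjusted p = 0.00409), so whether it fell depended on the scaling.

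The Gene IDs of rank 2 and rank 3 both rose in the main fit, by about the median log2 change of the highest level class (1.01). Only 3 of the 23 leaders were higher with the 4 libraries alone, and the result there for these 2 is not given. Rank 2 held 8.97% and 8.68% of the counts at 24 dpf, against 6.43% and 5.8% at 17 dpf, with a log2 change of 0.98 ± 0.25 (SE, edgeR adjusted p = 0.00587). Rank 3 held 8.31% and 7.68% at 24 dpf, against 5.74% and 5.15% at 17 dpf, with a log2 change of 1.01 ± 0.25 (SE, edgeR adjusted p = 0.00493). For both the groups did not overlap. Their ratio stayed between 0.979 and 1.15 in all 14 libraries. RSEM divides reads that match several transcripts among them, and whether these 2 Gene IDs shared reads was not tested.

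Turnover among the leaders was small and came from 6 Gene IDs. Of the 3 that entered the list of 20 at 24 dpf, the one ranked 20 held 0.665% and 0.384% of the counts at 24 dpf, against 0.096% and 0.0882% at 17 dpf and 0.0406 to 0.137% at the younger ages. Its log2 change was 3.01 ± 0.28 (SE, edgeR adjusted p = 7.13e-08). The one ranked 17 held 0.498% and 0.723% at 24 dpf, against 0.154% and 0.0857% at 17 dpf, a log2 change of 2.74 ± 0.31 (SE, edgeR adjusted p = 8.32e-07). At the younger ages it held 0.00469 to 0.335%, so it had been above its 17 dpf share before. Of the 3 that left the list, the one ranked 20 at 17 dpf held 0.0402% and 0.0465% of the counts at 24 dpf, against 0.41% and 0.397% at 17 dpf, a log2 change of -2.78 ± 0.39 (SE, edgeR adjusted p = 1.34e-05). Its 24 dpf shares lay within the 0.0056 to 0.206% it held at the younger ages. In all 3 the ages did not overlap. These 3 were picked out after their values were seen.

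**Figure D2:**
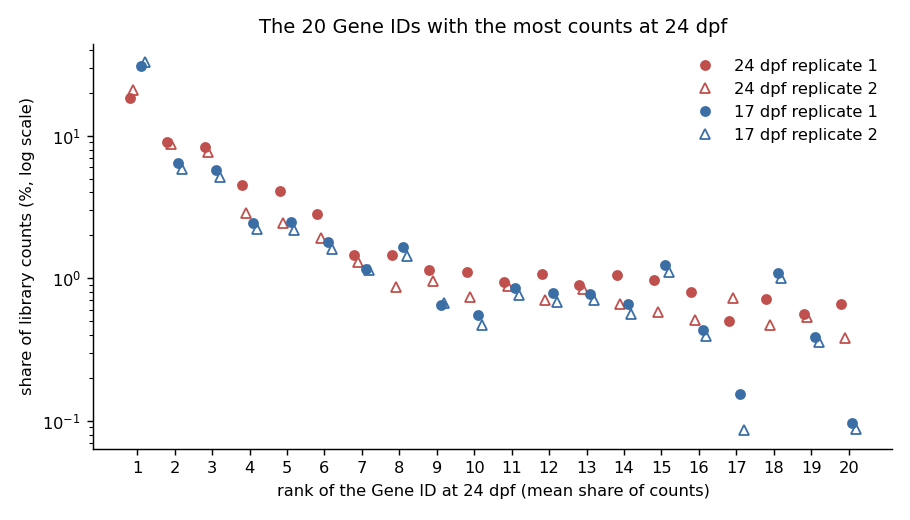
Share of library counts (log scale) of the 20 Gene IDs with the most counts at 24 dpf, by rank, in the 2 libraries of 24 dpf (red) and of 17 dpf (blue); circles are replicate 1 and triangles replicate 2. The leader has 18.4% and 21.1% of the counts at 24 dpf, against 30.6% and 32.7% at 17 dpf, ranks 2 and 3 lie higher at 24 dpf, and ranks 17 and 20 stand far above their 17 dpf shares.

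The largest changes that met the rule given here were 19-fold to 38.2-fold in the fit. They were taken among 3828 Gene IDs with an adjusted p under 0.05, ages that did not overlap, 10 CPM or more on average at the age with the higher level, and 2 CPM or more at the age with the lower. Of these, 2451 were higher and 1377 lower at 24 dpf. The 2 largest in each direction are given, with no name or function because the table pairs them with none.

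Gene ID 108261508 had 577 and 134 CPM (425 and 97 counts) at 24 dpf, against 12.9 and 5.75 CPM (24 and 11 counts) at 17 dpf. From 3 to 16 dpf it stayed at 2.08 to 14.9 CPM. It was therefore low in all 12 libraries up to 17 dpf and high in both at 24 dpf, with 4.31 times as much in replicate 1 as in replicate 2. The mean was 355 ± 313 CPM at 24 dpf and 9.32 ± 5.04 CPM at 17 dpf (SD, n = 2 each), and the log2 change was 5.26 ± 0.48 (SE, edgeR adjusted p = 5.45e-08). Without replicate 1 of 24 dpf the log2 change was 3.86, and without replicate 2 it was 5.96.

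Gene ID 100526699 had 99.1 and 35.8 CPM (73 and 26 counts) at 24 dpf, against 0.537 and 3.66 CPM (1 and 7 counts) at 17 dpf. It had been high once before, with 173 and 235 CPM at 5 dpf, and was at 2.04 to 5.76 CPM at 3, 13, 14 and 16 dpf. Only 5 dpf, of the other ages, reached the 24 dpf level. The log2 change over the week was 4.98 ± 0.55 (SE, edgeR adjusted p = 7.2e-07). It was 4.21 without replicate 1 and 6.91 without replicate 2 of 17 dpf, and 4.08 and 5.54 without replicate 1 or 2 of 24 dpf.

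Gene ID 110438159 had 6.78 and 5.51 CPM (5 and 4 counts) at 24 dpf, against 149 and 239 CPM (277 and 456 counts) at 17 dpf. At 14 dpf it had 103 and 87.4 CPM, and in the libraries of 3, 5, 13 and 16 dpf it was at 3.29 to 9.26 CPM. Its high level at 17 dpf thus followed a low level at 16 dpf and was gone at 24 dpf. The mean was 6.15 ± 0.899 CPM at 24 dpf and 194 ± 63.6 CPM at 17 dpf (SD, n = 2 each), with a log2 change of -4.97 ± 0.4 (SE, edgeR adjusted p = 9.24e-09).

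Gene ID 108273614 had 2.71 and 1.38 CPM (2 and 1 counts) at 24 dpf, against 40.8 and 38.2 CPM (76 and 73 counts) at 17 dpf. It had been at 20 and 19.6 CPM at 16 dpf, 6.32 and 6.91 CPM at 14 dpf and 16.8 and 22.4 CPM at 5 dpf, and at 0.206 to 2.25 CPM at 3 and 13 dpf. The 17 dpf libraries were its highest. Its mean at 24 dpf, 2.05 CPM from 3 counts, lay at the floor over that group, so its 19-fold fall is close to a bound. Over both libraries of each age, the ratio of 24 to 17 dpf was 0.052, with an exact 95% counting interval of 0.0106 to 0.155, and the fitted log2 change was -4.25 ± 0.56 (SE, edgeR adjusted p = 6.66e-06). In each of the 11 other fits made for these 4 Gene IDs, those without each library included, the direction was unchanged. The 4 had been picked for large changes that passed the test in the same libraries, so these fits are no independent check.

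**Figure D3:**
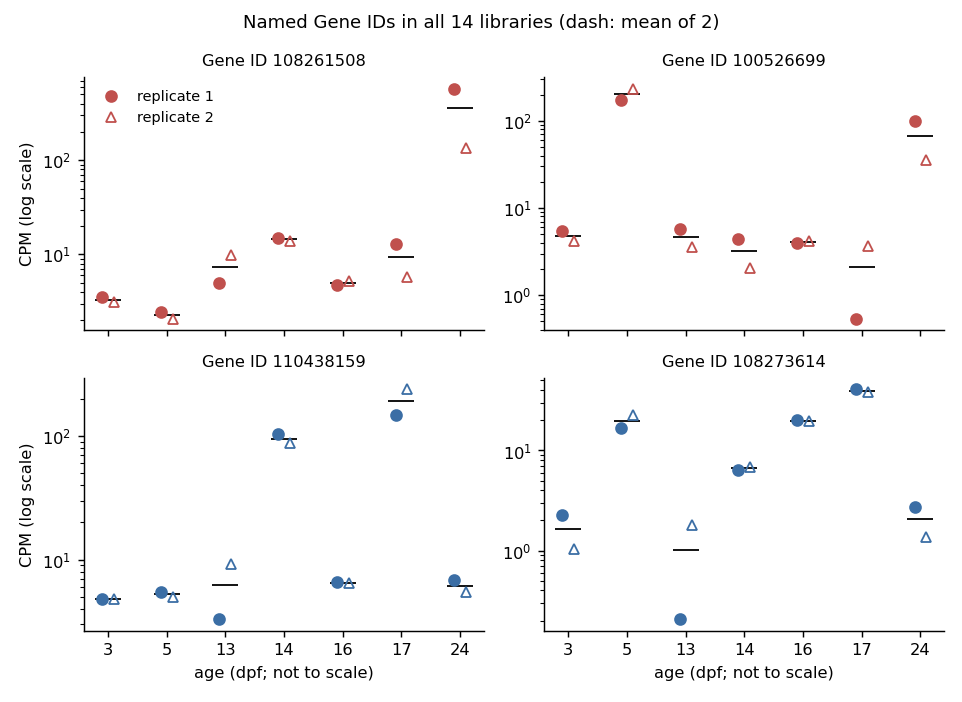
CPM (log scale) of the 4 Gene IDs in all 14 libraries by age, with circles for replicate 1, triangles for replicate 2 and a dash for the mean of 2. Those higher at 24 dpf (red, top) reach 577 and 99.1 CPM in replicate 1 of 24 dpf, and those lower (blue, bottom) have their highest levels at 17 dpf, up to 239 and 40.8 CPM.

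These levels are those of Gene IDs that cover several transcripts of the assembly, and in each of the 4 a single transcript held most of the counts at 24 dpf. In Gene ID 108261508 the leading transcript of 7 held 98.7% of the counts at 24 dpf and 97.1% at 17 dpf. In Gene ID 100526699 the leading transcript of 15 held 92.9% at 24 dpf and 50% of the 8 counts at 17 dpf. In Gene ID 110438159, with 7 transcripts, 2 of the 3 tested were lower on their own at 24 dpf, and in Gene ID 108273614, with 4 transcripts, the only 1 tested was. The leading share in Gene ID 110438159 was 88.9% of 9 counts at 24 dpf and 67.3% of 733 counts at 17 dpf. In Gene ID 108273614 it was 100% of 3 counts at 24 dpf and 86.9% of 149 counts at 17 dpf. So few counts at 24 dpf give only a rough share for these 2.

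Few Gene IDs had transcripts called in opposite directions, although fitted changes within a Gene ID often differed in sign. Tested one by one, 5812 of 42923 transcripts (13.5%) passed, 2855 (6.65%) higher and 2957 (6.89%) lower. Among the 1836 Gene IDs that were higher and had at least 2 tested transcripts, 2313 transcripts were called higher and 61 lower. Among the 1114 such Gene IDs that were lower, 40 transcripts were called higher and 1618 lower. The sums contain these transcripts, so this is no independent check. Called or not, the fitted change was above 0 for 5244 and below 0 for 1313 transcripts of the higher Gene IDs, and above 0 for 429 and below 0 for 4612 of the lower ones. In Gene IDs that did not pass, it was above 0 for 5674 and below 0 for 9694 transcripts. Of the 8785 Gene IDs with at least 2 tested transcripts, 3574 had fitted changes of both signs and 2600 had a called transcript. In 84 of these 2600 some were called higher and others lower, and 30 of these 84 Gene IDs did not pass the test on their sum. They had a median of 9 tested transcripts, against 3 over the 8785, and held 283 transcripts called higher and 460 called lower. A Gene ID with a single called transcript cannot show opposite calls. How many of the 2600 had at least 2 called was not counted, so 84 of 2600 understates how often opposite calls occurred where they could. Because a Gene ID can gather several loci or near-identical copies, opposite calls cannot be assigned to isoforms of a single gene.

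Seen over all ages, the Gene IDs that were higher at 24 dpf mostly went above their earlier levels. Their highest age mean was at 24 dpf for 1526 of 2525 (60.4%), and 1270 (50.3%) had both 24 dpf libraries above all 12 earlier ones. For 817 (32.4%) the lowest age mean was at 17 dpf. Of those that were lower, 1551 of 2208 (70.2%) had their lowest age mean at 24 dpf, 1049 (47.5%) had both 24 dpf libraries below all 12 earlier ones, and 1024 (46.4%) had their highest at 17 dpf. Over all 18644 tested Gene IDs, 18.6% had the highest and 31.5% the lowest age mean at 24 dpf, and 15.6% had the highest and 15.1% the lowest at 17 dpf. Both 24 dpf libraries were above all 12 earlier ones for 10.7% and below all 12 for 13% of them. The contrast itself uses these ages, so the counts describe the groups and carry no test.

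The levels at 3 to 16 dpf did not enter the contrast. Their libraries did enter the low-count filter, the scaling and the shared spread, so these courses are not independent of which Gene IDs were called. Relative to each Gene ID's own mean over those 5 ages, the Gene IDs that were higher at 24 dpf had medians of 0.19, -0.04, 0.16, -0.26 and -0.08 log2 units at 3, 5, 13, 14 and 16 dpf, then -0.14 at 17 and 0.91 at 24 dpf. Those that were lower had medians of 0.04, 0.05, -0.47, 0.28 and 0.13, then 0.66 at 17 and -1.5 at 24 dpf. Over all tested Gene IDs the medians at 3 to 16 dpf lay between -0.02 and 0.02, and were 0 at 17 and -0.33 at 24 dpf. In these relative values the higher group was thus above the lower at 3 and 13 dpf and below it at 5, 14 and 16 dpf. The gaps were widest at 13 and 14 dpf. A Gene ID's relative values over the 5 ages cancel out, so a change of order between ages is partly built in. In median log2 CPM itself the higher group was above the lower at all 5 ages, at 5.03 to 5.46 against 2.85 to 3.77. Among the 5 ages, 14 dpf was the lowest for 39.4% of the higher group, against 22% of all tested, and 13 dpf was the lowest for 50.2% of the lower group, against 21.2% of all tested. Conversely 14 dpf was the highest for 35.3% of the lower group and 10.9% of the higher group, against 22.7% of all tested. The groups differ in level as well, with median log2 CPM at 16 dpf of 5.19 in the higher and 3.61 in the lower group, and the part of that difference in these shares was not tested.

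**Figure D4:**
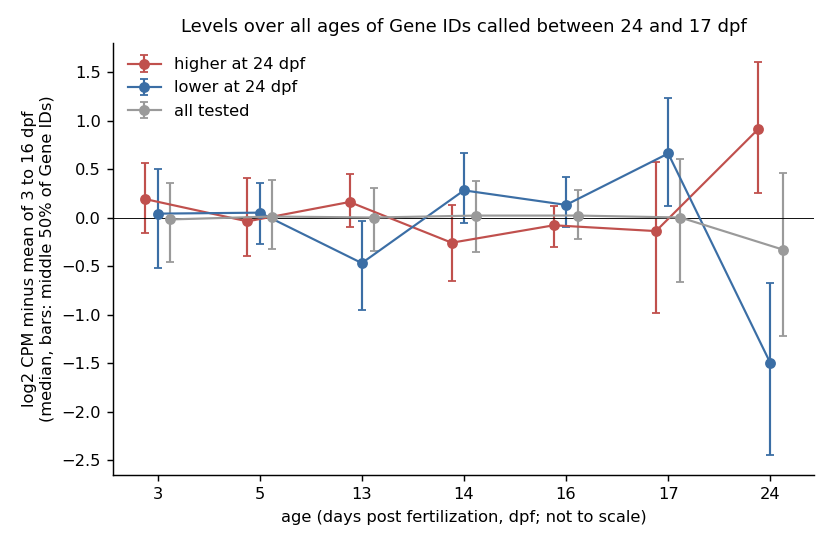
Median log2 CPM by age, relative to each Gene ID's mean over 3 to 16 dpf, for Gene IDs that were higher (red) or lower (blue) at 24 than at 17 dpf and for all tested (grey); bars span the middle 50% of Gene IDs. The red and blue medians part at 24 dpf (0.91 and -1.5), as the contrast requires. The ages of 3 to 16 dpf are outside the contrast but entered the filter, the scaling and the shared spread. Among them the red and blue medians lie farthest apart at 13 dpf (0.16 and -0.47) and 14 dpf (-0.26 and 0.28), in opposite orders. A Gene ID's values over 3 to 16 dpf cancel out here, so such a change of order is partly built in.

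As shares of all counts, the Gene IDs that were higher took up 63.5% and 59.3% of the 24 dpf libraries, against 42% and 38.5% of the 17 dpf libraries (61.4% ± 3 and 40.3% ± 2.44, SD, n = 2 each). At 3 to 16 dpf they held 49.1 to 53.5%. The Gene IDs that were lower held 1.59% and 2% at 24 dpf, against 5.99% and 6.42% at 17 dpf, and 5.08 to 8.67% at the younger ages. The groups summed are those called with TMM scaling, and the direction of these shares follows from how they were called.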

How the data were processed

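RNA from whole fry was depleted of ribosomal RNA and made into Illumina libraries, per the labels' protocols. The authors deposited expected counts, 1 column per library and 172513 transcripts with Trinity identifiers, with 2.24 to 5.56% of values not whole. CASAVA 1.9.1, FastQC, Trimmomatic 0.36, RSEM and DESeq2 are named in the submitters' processing notes without a role or order. How Gene IDs were assigned, the assembly's version, filters and strandedness were not given in the sources used here.

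Counts were summed over the 23837 all-digit Gene IDs, which leaves out 1401 Gene IDs with letters (0.351 to 1.54% of counts), and rounded. edgeR 4.0.16 in R 4.3.3 (filterByExpr with a minimum count of 10, TMM, quasi-likelihood F test) kept 18644 Gene IDs with 98.4 to 99.5% of counts. All 14 libraries entered a fit with age as the only term, which was also run on simulated data. No conclusion is drawn from that run on how the fit handles a spread between replicates that differs by age. The SE of a log2 change is its size divided by the square root of F. Log2 CPM used a prior count of 2. Columns were matched to samples by the labels' descriptions. Alternatives included DESeq2 1.42.0 and limma 3.58.1. Named Gene IDs follow the rule given with them. The 20 gene lists of the design could not be used, since the table gives no names. The groups compared, the lists and the rules were chosen with earlier results of these data known. The 2 libraries of each age differed by more than counting noise, with a median chi-square 1.18 to 2.88 times that expected of counting alone. It was 2.62 times at 24 dpf and 2.88 times at 17 dpf. The mean chi-square was 29.1 at 24 dpf and 9.66 at 17 dpf, against 1.36 to 9.78 at the younger ages. The libraries of an age were kept as 2 samples, although such a spread does not show whether they are technical repeats.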

Additional observations from a re-analysis of the deposited data

Results flagged for a closer look

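Gene IDs that hold letters, which the comparisons did not use, took a larger share of the counts at 24 dpf than at 17 dpf. They held 1.46% and 1.54% of the counts in the 24 dpf libraries (mean 1.5%), against 0.425% and 0.462% in the 17 dpf libraries, with Wilson 95% intervals of at most 0.02 percentage points to either side. Most of the surplus lay in 2 Gene IDs. The first held 0.49% and 1.16% at 24 dpf, against 0.153% and 0.162% at 17 dpf, and the second held 0.705% and 0.105% at 24 dpf, against 0.0198% and 0.0169% at 17 dpf. From 3 to 16 dpf the first held 0.0129 to 0.0996% and the second 0.0255 to 0.537%, so the second had been above its 17 dpf share before. Both were uneven between the 24 dpf replicates, in opposite directions. Without these 2, the others held 0.269% and 0.271% at 24 dpf, against 0.252% and 0.283% at 17 dpf. In a fit that included all Gene IDs, 196 with letters were tested, of which 8 were higher and 11 lower at 24 dpf by edgeR, where 4742 of all 18840 Gene IDs in that fit (25.2%) were called.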

How the results depend on the processing

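Of 97 alternative values, 88 kept their direction and their side of the threshold or stayed within 1.5 times the reported value. Of these 88, 44 were of the 4 named Gene IDs, which were picked for large changes that passed the test. The 97 do not include the shares higher given below for the 4 libraries alone, the test against a log2 change of 1, and transcripts. Added after seeing the data were unscaled library totals, the settings for level classes and for counts at 0, the share higher without the 20 highest Gene IDs or by DESeq2, and, for Gene IDs seen at a fixed total, drawing without replacement, leaving out the highest Gene IDs and leaving out each library. The number of changed Gene IDs, 4733, was 2937 with the 4 libraries alone (1352 higher, 1585 lower). There 4050 of the 4733 were still tested and 1207 of these did not pass. With filter and TMM set anew, log2 changes there moved by -0.167 in the median, and the cause of the lost calls was not tested. The number changed was 2617 at an adjusted p under 0.01 and 678 against a log2 fold change of 1, which can only lower it. Leaving out a library gave 2851 to 4694, with 2851 without replicate 1 and 3011 without replicate 2 of 24 dpf; the lone library is then assumed to vary like the other ages. The share higher, 53.3%, was 40.8% with upper-quartile scaling and 20.5% with unscaled totals, which reverses the prevailing direction, as did the 4 libraries alone (46%), the test against a log2 change of 1 (48.2%) and transcripts in place of sums (49.1%). It was 52.4 to 63.2% without each library in turn. Without the 20 highest Gene IDs it was 61%, and by DESeq2's test 61.6%. The 420 Gene IDs called lower at 0 counts were 47 with the 4 libraries alone, all that passed the filter there, and 251 to 400 without a library of 17 dpf. The main fit did not pair samples by replicate number, and the labels state no pairing. Same-numbered deviations over all tested Gene IDs had correlations of -0.07 to 0.05 over 21 pairs of ages, which cannot exclude a pairing. With the replicate block 4551 Gene IDs changed, 2460 higher and 2091 lower. Scaled totals of 725607 and 736978 counts at 24 dpf limit what can be seen below the floor of 2.05 CPM.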
